A study of Mus musculus with 4 samples.

Results

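Cones are the photoreceptors of daylight and colour vision, and 10 genes of their light response were followed here in the RNA of the mouse lens. The genes were taken by name, as those encoding the cone forms of the visual pigments and of the proteins that carry the signal from pigment to membrane channel. All 10 were among the 14924 genes of the expression table. The 4 libraries compared were 2 from lenses of *S100A4*-/- mice, which lack the calcium-binding protein S100A4, and 2 from lenses of littermate wild type (WT) mice. Both genotypes were on a C57BL/6J background, the mice were 1 month old, and each library was made from the RNA of 6 to 12 pooled lenses. Single animals cannot be told apart within a pool. The question put to the data was whether genes of cone phototransduction differ between lenses with and without S100A4.

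In a cone, light isomerizes the chromophore of an opsin, the opsin activates a transducin made of an alpha, a beta and a gamma subunit, and the freed alpha subunit removes the inhibition of a cGMP phosphodiesterase. The fall in cGMP then closes a cation channel in the outer segment, and arrestin ends the response by binding the opsin. Rods use the same steps with closely related proteins from separate genes, so that most cone genes have a rod counterpart. In the mouse, most cones make a short-wavelength and a middle-wavelength opsin together, in proportions that change across the retina.

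Each value is a gene's read number over the size factor of its library. A single read was therefore worth 0.856 and 1.01 in *S100A4*-/- and 1.04 and 1.09 in WT. The libraries held 81602367 and 74108017 reads on genes in *S100A4*-/- and 70253985 and 68038158 in WT. Only 512 and 448 of these reads lay on the 10 cone genes for *S100A4*-/-, against 187 and 191 for WT, which is 6.27, 6.05, 2.66 and 2.81 RPM, or reads scaled to a common library total. The labels of the libraries held for the targeted gene. *S100a4* was at 14.6 and 18.2 in *S100A4*-/- and at 14420 and 14380 in WT lenses. Its log2 fold change was −9.70 ± 0.10 (limma, adjusted p = 6.42e-41). Here and below, log2 fold changes compare *S100A4*-/- with WT on the log2(value + 1) scale and stand ± their standard error, and p-values are adjusted over all genes tested by the method of Benjamini and Hochberg. The tissue label held as well, since the 14 lens markers listed, from crystallins and connexins to the fiber proteins *Bfsp1* and *Mip*, were all in the table, and *Cryaa*, the most abundant, stood at 11950000 to 13330000 in the 4 libraries. By limma 0 of the 14 were called in either direction, as by edgeR and DESeq2, while 2 had an unadjusted p under 0.05, and their log2 fold changes ran from −0.12 to 0.02.

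For reference, the opsin genes lie on chromosomes 6 (*Opn1sw*) and X (*Opn1mw*), and the bases before their RefSeq transcription starts are shown because their RNAs gave different calls below. The sequences are those of RefSeq on GRCm38.p6, read 5′ to 3′ on the strand of the gene. *Opn1sw* is at chr6:29380514-29380763 on the minus strand and *Opn1mw* at chrX:74127216-74127463 on the plus strand, where the last 2 bases before the start were cut off as exonic. In GENCODE M21 1 transcript of *Opn1sw* begins further upstream, at 29388468, and the bases shown here lie in an intron of it. Capitals mark matches to 3 motifs searched on both strands. The core bound by RORB and by thyroid hormone receptors is AGGTCA, which reads TGACCT on the opposite strand. A part of the element bound by NRL is TGCTGA, which reads TCAGCA on the opposite strand. The core bound by CRX and OTX2 is GGATTA, which reads TAATCC on the opposite strand. In *Opn1sw* the first capital stretch holds the RORB letters overlapping the NRL letters, the second holds the RORB letters again, and the bases of *Opn1mw* hold none of the 3 motifs.
Opn1sw: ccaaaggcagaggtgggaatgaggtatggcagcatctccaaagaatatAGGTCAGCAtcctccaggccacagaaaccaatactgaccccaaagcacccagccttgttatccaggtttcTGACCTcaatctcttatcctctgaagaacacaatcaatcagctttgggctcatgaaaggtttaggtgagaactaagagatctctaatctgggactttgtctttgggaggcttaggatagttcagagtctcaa
Opn1mw: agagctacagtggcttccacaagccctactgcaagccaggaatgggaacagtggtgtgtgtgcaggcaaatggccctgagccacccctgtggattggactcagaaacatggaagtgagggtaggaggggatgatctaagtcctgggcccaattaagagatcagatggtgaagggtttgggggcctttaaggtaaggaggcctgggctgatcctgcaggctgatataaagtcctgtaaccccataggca

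A RefSeq window from 250 bases before to 50 bases after the start was at hand for 6 of the 10 cone genes, with 7 windows in all. The windows of *Gnb3*, *Gngt2*, *Pde6c* and *Cngb3* were not used here. The CRX and OTX2 core was found in 1 of the 7 windows, that of *Gnat2*, where it begins 19 bases before the RefSeq start. By GENCODE M21 *Gnat2* begins further upstream, at 108092789, so that these bases lie in its annotated 5′ UTR in exon 1. The site is shown in capitals with its surroundings, at chr3:108093035-108093064 on the plus strand.
Gnat2: gggacaatccccGGATTAggaaggagctct

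Of all 32851 promoter windows of the same length, 7.06% hold that core, 19.5% the NRL letters and 16.3% the RORB letters. The NRL and RORB letters were each found in 1 of the 7 cone windows, that of *Opn1sw*. These matches describe letters in a window and were not tested as binding sites.

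Several cone genes were higher in *S100A4*-/- lenses. Of the 10 genes, 5 were called higher, with a change of 2-fold or more at an adjusted p no greater than 0.05 (*Arr3*, *Gnat2*, *Gngt2*, *Opn1sw* and *Pde6h*). None was called lower, with all 10 log2 fold changes above 0, and 5 were not called (*Cnga3*, *Cngb3*, *Gnb3*, *Opn1mw* and *Pde6c*). With the same test (limma over 14780 genes), 3.65% of all genes tested were called higher and 0.0744% lower. Among the 4551 genes with a mean value of 5 to 100, where 9 of the 10 cone genes lie, the share called higher was 8.33%. Both *S100A4*-/- values lay above both WT values for 7 of the 10 cone genes and for 23.7% of all genes tested. The median log2 fold change was 1.18 over the cone genes and −0.005 over all genes tested. In these whole-lens libraries, a larger number of cells that make an RNA and more RNA per cell cannot be told apart.

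These calls rest on few reads and on the test. All 10 genes passed the filter of 10 or more in value in any library, but *Gngt2* and *Cnga3* reached it through *S100A4*-/- libraries alone, and 4 of the other 8 were called higher. The quasi-likelihood test of edgeR on the recovered reads called 5 of the 10 higher against 3.74% of all genes. DESeq2, the package the study used for its own test, called 0 of the 10 by its Wald test against 2.85% of all genes. The smallest adjusted p was 0.0569 by DESeq2, while 7 of the 10 had an unadjusted p under 0.05 both by DESeq2 and by limma. *Gnat2*, which the text of the study lists among upregulated genes, had an adjusted p of 0.159 by DESeq2 here. The median log2 fold change of the cone genes was 1.33 by DESeq2, with all 10 above 0. With either *S100A4*-/- library left out, limma called 0 of the 10, and with either WT library left out it called 4. Of all 14780 genes, 168 and 210 were called higher without the first or the second *S100A4*-/- library, and 546 and 543 without the first or the second WT library. The median log2 fold change of the cone genes was 1.53 and 1.02 in the former fits and 1.10 and 1.11 in the latter. Without the first WT library *Gnat2* was not called, and without the second *Opn1sw* and *Arr3* were not called while *Gnb3* was (log2 fold change 1.04, limma, adjusted p = 0.00138).

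**Figure D1:**
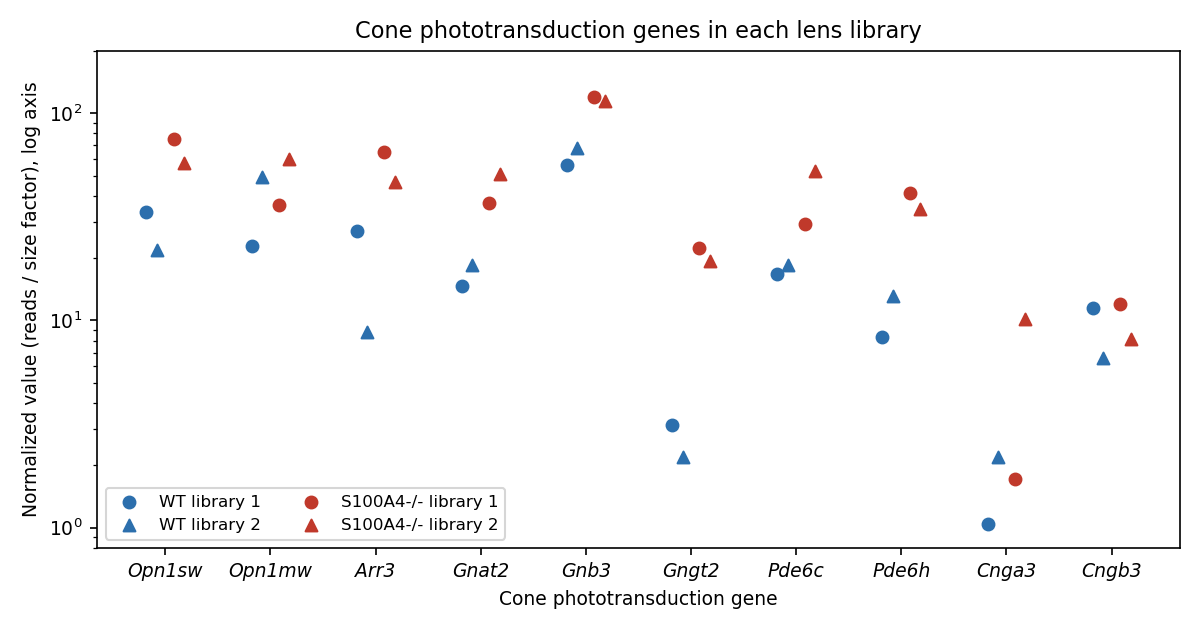
Normalized value (reads divided by the size factor, log axis) of each of the 10 cone genes in the 2 WT libraries (blue) and the 2 *S100A4*-/- libraries (red), with circles for library 1 and triangles for library 2. The red points stand above both blue points for 7 genes, and the colours overlap for *Opn1mw*, *Cnga3* and *Cngb3*.

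Of the visual pigments, *Opn1sw* encodes the short-wavelength opsin. Its values were 75.4 and 57.8 in *S100A4*-/- and 33.4 and 21.9 in WT lenses, from 88, 57, 32 and 20 reads. Both *S100A4*-/- libraries were above both WT libraries, with means of 66.6 ± 12.4 and 27.7 ± 8.14 (SD, n = 2 each). The log2 fold change was 1.26 ± 0.32 (limma, adjusted p = 0.00795). On the opposite strand, 397 exonic bases of *Opn1sw* (chromosome 6, 29376671 to 29388468) are shared with *Calu*, a gene with values of 2615 to 2817 in the 4 libraries and a log2 fold change of −0.01. The libraries were stranded, and whether the counting used the strand is not given in the sources used here.

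*Opn1mw*, the gene of the middle-wavelength opsin (chromosome X, 74127464 to 74150760), was at 36.0 and 59.8 in *S100A4*-/- and at 23.0 and 49.3 in WT lenses. The groups overlapped, as the second WT library was above the first *S100A4*-/- library. Its log2 fold change was 0.45 with a 95% interval of −0.27 to 1.17 (limma, adjusted p = 0.558), so that neither no change nor a 2-fold rise lies outside the interval. Without the first WT library the log2 fold change was −0.09. Per kilobase of exonic sequence, *Opn1sw* divided by *Opn1mw* gave 1.28 and 0.590 for *S100A4*-/- against 0.889 and 0.272 for WT. The ratio overlapped between the groups.

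The cone transducin subunits *Gnat2* (alpha), *Gnb3* (beta) and *Gngt2* (gamma) were all higher in both *S100A4*-/- libraries than in either WT library. *Gnat2* (chromosome 3, 108092789 to 108101432) was at 36.8 and 50.7 in *S100A4*-/- against 14.6 and 18.6 in WT lenses, from 43, 50, 14 and 17 reads. Its log2 fold change was 1.34 ± 0.39 (limma, adjusted p = 0.0277). *Gnb3* (chromosome 6, 124834240 to 124840275) had the most reads of the 10 genes, with values of 119 and 115 against 56.4 and 67.9. With a log2 fold change of 0.91 ± 0.22 (limma, adjusted p = 0.00514) it missed the fold threshold and not the p threshold. *Gnb3* is also known from the ON bipolar cells of the retina, so its reads are not a measure of cones alone.

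*Gngt2* (chromosome 11, 95837216 to 95845734) went from 3.13 and 2.19 in WT, which are 3 and 2 reads, to 22.3 and 19.3 in *S100A4*-/- lenses, which are 26 and 19 reads. The normalized read totals of the groups had a ratio of 7.82 with a 95% interval of 3.11 to 25.2 from counting error only, and the WT libraries were at or under the floor of 3 reads. On the log2(value + 1) scale the change was 2.58 ± 0.71 (limma, adjusted p = 0.0156), the highest of the 10 genes. It shares 234 exonic bases with *Abi3* on the opposite strand, which was not analysed here.

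Among the effectors, *Pde6c* encodes the catalytic subunit of the cone phosphodiesterase and *Pde6h* its inhibitory gamma subunit. *Pde6h* (chromosome 6, 136923832 to 136968865) was at 41.1 and 34.5 in *S100A4*-/- against 8.35 and 13.1 in WT lenses. That is a log2 fold change of 1.75 ± 0.45 (limma, adjusted p = 0.00970), with both *S100A4*-/- values above both WT values. A stretch of 136 exonic bases is shared with *Arhgdib* on the opposite strand, which had 6 and 19 reads in *S100A4*-/- against 0 and 4 for WT. *Pde6c* (chromosome 19, 38132781 to 38183958) was at 29.1 and 52.7 against 16.7 and 18.6. Its groups did not overlap, but its log2 fold change of 1.11 (95% interval 0.29 to 1.93) did not pass the threshold after adjustment over all genes (limma, adjusted p = 0.0992). The change was 0.69 without the second *S100A4*-/- library and 1.53 without the first.

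*Cnga3* and *Cngb3* encode the A and B subunits of the cGMP-gated cation channel of cones and had the fewest reads. *Cnga3* (chromosome 1, 37214434 to 37263384) had 2 and 10 reads in *S100A4*-/- libraries against 1 and 2 in WT libraries. The ratio of its normalized read totals was 3.47 with a 95% counting interval of 0.938 to 19.2, and a difference was not detectable at this depth. Its log2 fold change of 1.11 was 0.087 without the second *S100A4*-/- library and 2.13 without the first. *Cngb3* (chromosome 4, 19280850 to 19510623) had 14 and 8 reads against 11 and 6, and its log2 fold change was 0.16 with a 95% interval of −1.18 to 1.50 (limma, adjusted p = 0.937). The groups overlapped for both genes, and the sign for *Cngb3* turned with the first *S100A4*-/- library left out (−0.09), with the second WT library left out (−0.20) and with quantile normalization (−0.23).

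*Arr3* encodes cone arrestin, which quenches the activated opsin. Its values (chromosome X, 100605497 to 100618493) were 65.1 and 46.6 in *S100A4*-/- and 27.1 and 8.76 in WT lenses, from 76, 46, 26 and 8 reads. The groups did not overlap, and the WT libraries differed from each other by more than the *S100A4*-/- libraries did in proportion. The log2 fold change was 1.76 ± 0.41 (limma, adjusted p = 0.00367), which had the smallest adjusted p of the 10 genes. The change was 0.99 without the second WT library, where the call was lost, and 2.52 without the first.

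Levels of different genes were compared per kilobase of exonic sequence. In *S100A4*-/- lenses the order began with *Gnb3* at 44.4 ± 1.21 (SD, n = 2), followed by *Opn1mw* at 30.7 ± 10.8, *Opn1sw* at 26.0 ± 4.86 and *Arr3* at 23.7 ± 5.54. *Gnb3* was above *Opn1mw* in both libraries, the order among *Opn1mw*, *Opn1sw* and *Arr3* was not separated beyond the spread of the libraries, and both *Arr3* values were above those of *Gnat2* at 14.6 ± 3.27. *Cngb3* at 2.13 ± 0.583 and *Cnga3* at 1.50 ± 1.51 were last. In WT lenses *Gnb3* at 23.6 ± 3.09 and *Opn1mw* at 23.1 ± 11.9 came first and overlapped each other, and *Cnga3* at 0.409 ± 0.205 was last. *Gngt2* was in place 7 in *S100A4*-/- lenses, above *Cngb3*, and in place 8 in WT lenses, below it. In WT lenses the values of *Gngt2* and *Cngb3* overlapped, so their order there was not separated. The level of *Pde6h* per kilobase, 4.82 and 1.37, is divided by 7846 annotated exonic bases, which include long alternative exons.

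Most rod counterparts of these genes were also higher. Of the 9 rod genes listed (the rod opsin was not analysed here), 7 were called higher by limma, against 3.65% of all genes tested. *Gnb1* and *Cngb1* were below the fold threshold, and the median log2 fold change was 1.81. The study itself named all 7 as upregulated from these samples, so the count is not independent evidence of a direction. *Gnat1*, the rod transducin alpha gene, was at 3339 and 3327 in *S100A4*-/- and 736 and 782 in WT lenses. *Sag*, the gene of rod arrestin, was at 1076 and 1077 against 302 and 333, a log2 fold change of 1.76, which is the value of *Arr3* to 2 decimals. *Cnga1*, the rod channel subunit, was at 210 and 180 against 58.5 and 41.6.

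Cone and rod genes were also set against each other within each library, as the log2 ratio of the cone to the rod value, each with 1 added, in 9 pairs, with *Pde6c* in 2 of them. For *Gnat2* to *Gnat1* the ratio was −6.46 and −6.01 in *S100A4*-/- and −5.56 and −5.32 in WT lenses, a difference of −0.80. The ratio fell, without overlap, in 3 pairs (*Gnat2* to *Gnat1*, *Pde6c* to *Pde6a* by 0.70 and *Cngb3* to *Cngb1* by 0.80). It was higher, without overlap, in 2 pairs (*Gnb3* to *Gnb1* by 0.71 and *Gngt2* to *Gngt1* by 0.52) and overlapped between the groups in 4. For *Arr3* to *Sag* the difference was −0.002. With 2 libraries against 2 the exact two-sided permutation test cannot go below p = 0.333 (0.60 after adjustment over the 9 pairs, the lowest found). It could pass no threshold whatever the ratios, and these differences are given as a description. A pair that separates without overlap reaches this p of 0.333 (permutation test), so about that share of pairs would separate if the groups did not differ.

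**Figure D2:**
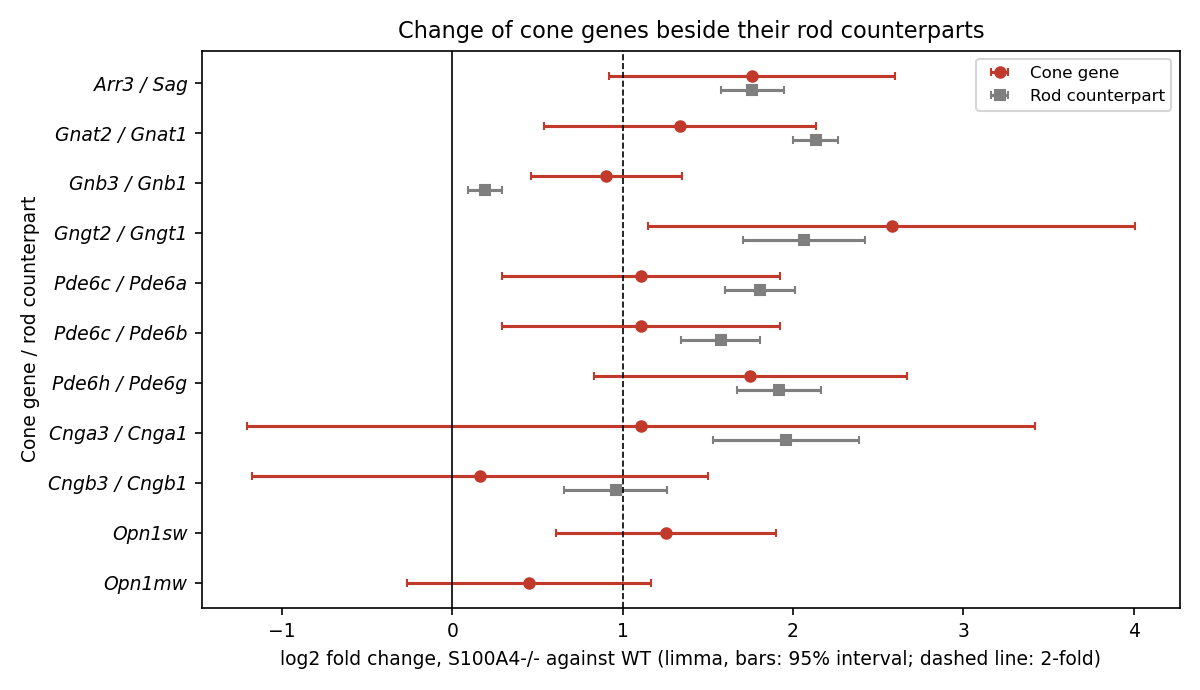
Log2 fold change of *S100A4*-/- against WT lenses with its 95% interval (limma) for each cone gene (red circles) and its rod counterpart (grey squares), with the cone opsins, which have no counterpart here, at the bottom. The cone intervals are wide, from −1.21 to 3.42 for *Cnga3*, and those of *Gnat1* and *Gnb1* are narrow, at 2.00 to 2.27 and 0.09 to 0.29.

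Whether the summed cone values differed more or less between the genotypes than the summed rod values turned on *Gnb1*, a beta subunit that many cell types use. The values of the 10 cone genes added up to 439 and 454 in *S100A4*-/- and 195 and 209 in WT lenses, means of 446 ± 11.0 and 202 ± 9.81 (SD, n = 2 each) and a ratio of 2.21. Without *Gnb3* the sums were 319 and 340 against 139 and 141, a ratio of 2.35. The 9 rod genes listed had a ratio of 1.85, below that of the cone genes. *Gnb1* was at 5899 and 5874 against 5044 and 5263, and it was left out of a second sum after its values were seen. The other 8 rod genes added up to 7250 and 7164 against 1877 and 1986, a ratio of 3.73. These ratios of sums were not tested. The share of cone reads in cone plus rod reads, without *Gnb1*, was 5.70% (exact Clopper-Pearson 95% interval 5.23 to 6.20) and 5.96% (5.44 to 6.52) in *S100A4*-/- libraries, against 9.42% (8.17 to 10.8) and 9.53% (8.28 to 10.9) in WT libraries. These intervals cover counting error only. With *Gnb1* kept, as in the list of 9 rod genes, the order turned, to 3.23% and 3.37% in *S100A4*-/- and 2.74% and 2.80% in WT libraries.

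**Figure D3:**
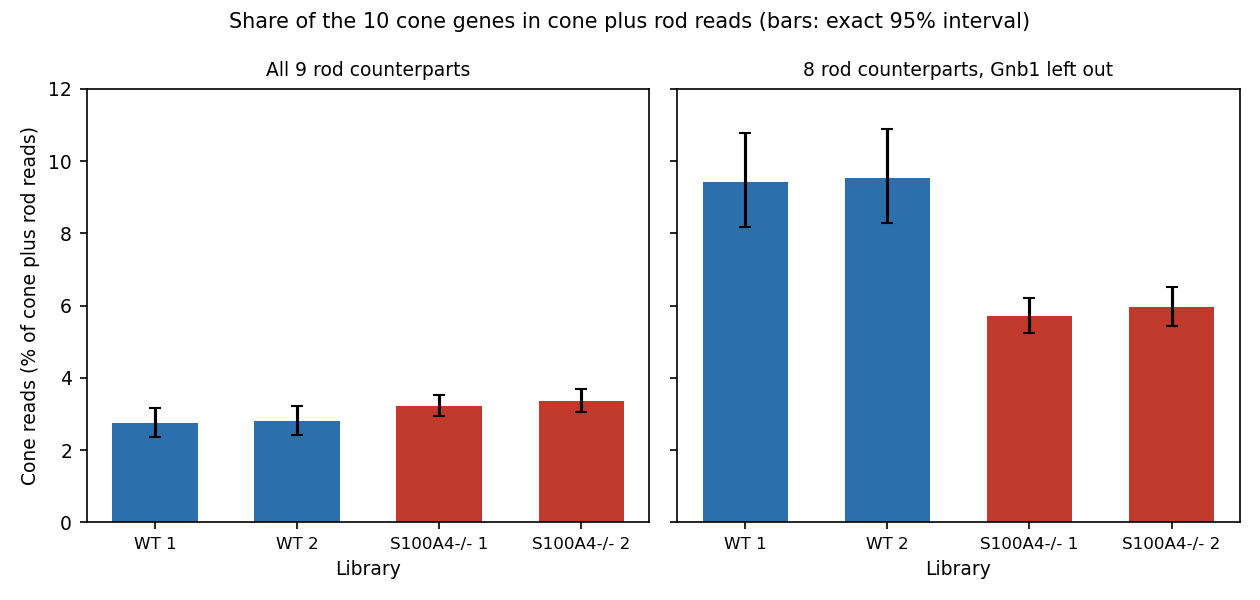
Reads on the 10 cone genes as a percentage of the reads on cone plus rod genes, by library, with all 9 rod counterparts (left) and without *Gnb1* (right), and with black lines for the exact 95% binomial interval, which covers counting error only. The *S100A4*-/- libraries (red) are above the WT libraries (blue) on the left, at 3.23% and 3.37% against 2.74% and 2.80%, and below them on the right, at 5.70% and 5.96% against 9.42% and 9.53%.

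Most genes of a further phototransduction list, which was not limited to genes that rods and cones share, were also higher. Of the 17, 14 were called higher and 0 lower by limma, against 3.65% and 0.0744% of all genes tested. Their median log2 fold change was 2.01. The study itself named some of them from these samples, so that the count is not independent evidence of a direction. *Grk1*, the opsin kinase that mouse cones share with rods, was at 642 and 586 in *S100A4*-/- and 136 and 119 in WT lenses (log2 fold change 2.26, limma, adjusted p = 5.32e-17). *Unc119*, a trafficking factor for transducin, was at 1184 and 1200 against 846 and 794 and did not reach a 2-fold change. *Slc24a2*, the sodium, calcium and potassium exchanger of cones, was at 873 and 768 against 825 and 844, with overlapping groups and a log2 fold change of −0.03 (limma, adjusted p = 0.910).

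Transcription factors listed for the cone lineage, a list not limited to factors of cones alone, were split. Of 13 listed, 12 were in the table. By limma 6 of these were called higher and 0 lower, against 3.65% and 0.0744% of all genes tested, and the median log2 fold change was 1.26. The 3 most abundant did not pass, namely *Rora* at 1651 and 1375 in *S100A4*-/- against 1442 and 1271 in WT lenses, *Rxrg* at 1068 and 1152 against 1132 and 1166, and *Sall3* at 886 and 834 against 589 and 645. Of these, *Sall3* missed the fold threshold and not the p threshold (log2 fold change 0.48, limma, adjusted p = 8.15e-05). *Rxrg* and *Thrb*, the partners through which thyroid hormone sets the opsin pattern of mouse cones, had log2 fold changes of −0.05 and 0.20 (limma, adjusted p = 0.789 and 0.605), where *Thrb* was singled out after its values were seen. The 6 called higher were *Crx*, *Otx2*, *Neurod1*, *Rorb*, *Nr2f1* and *Nr2f2*, with log2 fold changes of 1.24 (*Nr2f2*) to 2.05 (*Crx*). These were also named after their values were seen, and the study named *Crx*, *Otx2*, *Neurod1* and *Rorb* as upregulated from the same samples. Of the rod regulators, 3 of 3 were called higher by limma, and the study named these 3 as upregulated from the same samples. *Nrl*, the most abundant, was at 601 and 516 in *S100A4*-/- against 127 and 140 in WT lenses.

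Markers of other cell types of the eye were higher in part, and their part in the cone result was not tested. For comparison with the counts below, limma called 3.65% of all genes tested higher and DESeq2 2.85%. Among genes with a mean value of 5 to 100 the limma share was 8.33%. The study named some of these markers as upregulated from the same samples. Among 9 of 10 bipolar markers in the table, 2 were called higher by limma and 0 by DESeq2, and the list added up to 4098 and 3822 in *S100A4*-/- against 3279 and 3135 in WT lenses, with *Prkca* the most abundant. For Müller glia 3 of 6 were higher, with sums of 85190 and 86910 against 80480 and 80880, and *Dkk3*, the most abundant at 77860 to 80320, was not. Of the amacrine and ganglion markers 7 of 11 were higher, and the list stood at 2964 and 2991 against 2049 and 2109, with *Tfap2a* the most abundant. Pigment cell markers had 5 of 6 higher, with sums of 1672 and 1737 against 682 and 754 and *Oca2* the most abundant, and the pigment epithelium list, led by *Ttr*, had 2 of 4 higher by limma and 1 by DESeq2, with 665 and 615 against 316 and 356. The macrophage list, led by *Csf1r*, had 4 of 6 higher by limma and 1 by DESeq2, with 293 and 247 against 103 and 86.5. The endothelial list, led by *Flt1*, had 2 of 6 higher with 402 and 410 against 121 and 150. No marker in the table was at 0 in both WT libraries, and *Gad2* and *Slc17a6* were at 0 in 1 of them.

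**Figure D4:**
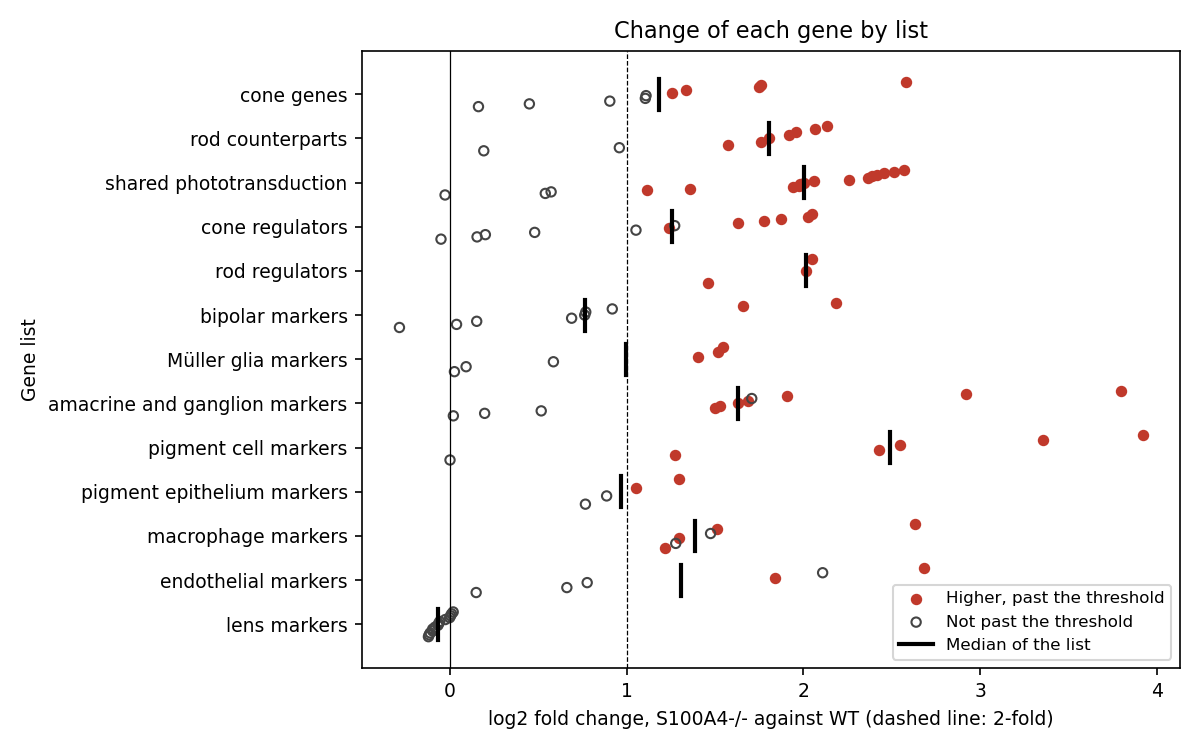
Log2 fold change of *S100A4*-/- against WT lenses (limma) of every gene tested in each list, filled where it passed the threshold as higher, with a black line at the median of the list. The cone genes spread from 0.16 to 2.58 around a median of 1.18, below the rod counterparts at 1.81, and all lens markers lie between −0.12 and 0.02.

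Other genes had a like profile over the 4 libraries. Of the genes outside all lists, the 5 with the smallest Euclidean distance to the mean centred log2 profile of the cone genes were *Zic4* (0.09), *Klhdc8a* (0.09), *Mfap4* (0.10), *Nlgn3* (0.11) and *Asns* (0.12). *Zic4*, for example, was at 60.8 and 67.9 in *S100A4*-/- and 25.1 and 26.3 in WT lenses. Over 4 libraries this likeness is a description, and 1443 of the genes tested were nearer to the mean profile than the median cone gene was, at 0.95. Within the *S100A4*-/- group, 6 of the cone genes were higher in library 1 and 4 in library 2, and within WT 4 were higher in library 1 and 6 in library 2.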

How the data were processed

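RNA of lenses was made into stranded mRNA libraries, read from a single end in 1 lane. Per the methods and the labels, the authors used Trim Galore for trimming, STAR for mapping to GRCm38v73 (mm10 in the labels) and HTSeq for counting reads of a single locus. Genes under 10 reads in all libraries were dropped, and DESeq2 gave the size factors for normalization. The authors also tested the difference between genotypes with DESeq2, at the 2-fold and 0.05 adjusted p thresholds used here. Versions of these tools are not given in the sources used here. The authors deposited signal values, the quotients of count and size factor, which take no account of gene length. The values checked, which left out 0 and the genes with the most reads, were whole multiples of 1 read (100.0% in each library, within 0.001 of the number of reads). That gave back the reads, and the highest values were rounded without this check. The files had 0 columns without a sample.

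Identifiers were matched to GENCODE M21 (14782 of 14924 genes), which also gave coordinates and exonic lengths. Groups were compared with limma (lmFit, eBayes with trend) on log2(value + 1). The filter, 10 or more in value in any library, left 14780 genes. Such fold changes understate changes of low genes. edgeR and DESeq2 were run on the recovered reads as alternatives, and pseudocounts of 0.5 and 5, other filters, scalings, a replicate block and each library left out were tried. Replicates differed by more than sampling noise (median chi-square per gene 2.03 and 1.09 against 0.455). They are separate pools. P-values rest on the spread between these libraries, with the variance of each gene drawn toward a trend over all genes. With limma fitted without that trend, 1 of the 10 cone genes was called higher. The limma, edgeR and DESeq2 fits were tested on simulated data.

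The members, the gene lists and the tests were chosen with earlier results of these data known. All cone genes, their rod counterparts and the 3 most abundant genes of each other list could be named, and so could *S100a4*, markers without reads and the 5 genes of nearest profile. The level range of 5 to 100 was set after the data were seen. Versions were 3.58.1 for limma, 4.0.16 for edgeR, 1.42.0 for DESeq2 (all in R 4.3.3), and 2.3.3 for pandas, 1.17.1 for scipy and 3.10.9 for matplotlib (Python 3.11.15). Some genes of the study are not reported here.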

Additional observations from a re-analysis of the deposited data

How the results depend on the processing

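The count of 5 cone genes called higher was 5 under both pseudocounts, without a filter, with TMM factors, with equal totals and with edgeR. It was 0 with quantile normalization, where 376 of all genes were called higher, 0 with DESeq2, 1 with limma fitted without a variance trend, 0 of 1 gene tested at a mean value of at least 50, and 0 to 4 with a library left out, 0 without either *S100A4*-/- library. The median log2 fold change of the cone genes was 0.94 with quantile normalization, 1.33 with DESeq2 and 1.18 without the trend, as against 1.18. Called genes of either direction numbered 550 in all, 287 at a mean value of at least 50, 181 without the trend and 172 to 559 with a library left out (172 without *S100A4*-/- library 1 and 216 without library 2), where the lone library of a group is assumed to vary like the other group. Of 141 log2 fold changes of cone genes under the alternatives, 137 kept their sign. The others were *Opn1mw* without WT library 1 (−0.085, with up to 0.98 over the libraries left out) and *Cngb3* with quantile normalization (−0.23), without *S100A4*-/- library 1 (−0.09) and without WT library 2 (−0.20, with up to 0.52 over the libraries left out). The median difference of the cone to rod log2 ratios was −0.47, and −0.24 to −0.59 under its alternatives. With the replicate number as a block 5 cone genes and 591 genes in all were called. The deviations of same-numbered libraries had a correlation across genes of 0.01, which cannot exclude a shared effect on some genes. What the number stands for is not given in the sources used here. The few reads on cone genes limit all of these values.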
